A study of Homo sapiens with 12 samples.

Results

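Cassette exons of more than 51 bases whose length is divisible by 3 were described across T-47D cells treated with palbociclib or with solvent. Members were the skipped exon events of the authors' splicing table with such a length that had, over both forms, 20 or more reads per library on average and the rarer form in 5% or more of all reads. The rule found 4898 events among the 13469 that passed the same 2 read filters and the 97457 listed. An event pairs an exon with 1 set of neighbouring exons, so the 4898 events stood for 3993 distinct exons in 2861 genes. Of these genes, 2112 held 1 member exon, 749 held more, and 32 held at least 5. Another 7373 events past the read filters had a length over 51 bases that was not divisible by 3, and 1198 were of at most 51 bases. The length and the read filters define the members and are no findings. The rule used reads of both treatments added together, not the difference between treatments.

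T-47D is an established human breast epithelial cell line that expresses oestrogen receptor, of unedited genotype per the labels. Palbociclib, an inhibitor of the cyclin-dependent kinases CDK4 and CDK6, was given at 1 µM for 24 h, and DMSO, its solvent, for the same time to the control. Each group had 3 poly(A) RNA libraries and 3 libraries of accessible chromatin (ATAC-seq), stated to be biological replicates. The study thus covers a single line, dose and time. RNA libraries held 48084308 to 69411608 inclusion reads and 4157941 to 5960030 skipping reads over all listed events, and 959044 to 1406948 reads of the member events. Because events share exons and junctions, a read can be counted in several of them. All 10 luminal epithelial markers were present in DMSO, at 43.2 FPKM (ESR1) to 2113 FPKM (KRT19), where FPKM is fragments per kilobase of transcript, scaled to library size. Of 10 markers of basal, stromal, endothelial and immune cells, KRT5, KRT14, PDGFRB, PECAM1, PTPRC and CD3E had no entry in the table analysed. In DMSO, TP63 had 0.0731 FPKM, COL1A2 0.453 FPKM, VIM 1.58 FPKM and COL1A1 23.7 FPKM.

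A cassette exon is either kept between its neighbours in the mature RNA or left out together with both flanking introns. An included exon of a length divisible by the codon size leaves the reading frame downstream as it was, so that, in a coding region, the 2 forms can encode proteins that differ by an internal stretch. This holds only if the exon lies in the coding region and contains no stop codon in the frame used. Exon choice is set by splice site strength and by RNA-binding proteins such as the SR and hnRNP families, which favour or repress the use of an exon. The inclusion level used below is the share, among the 2 forms of 1 event, of the form that contains the exon, from 0 to 1. It was computed from reads per effective length of the inclusion and the skipping form. This level is not the share of all transcripts of the gene, and 1 exon can have different levels with different neighbours.

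Sequences were read from RefSeq (GRCh38.p14), which in the tables used here holds the bases around gene starts. Of the member exons, 8 lay wholly within such a window, and none of them was among the exons called below. A pair of them shows what the length rule does and does not state about the reading frame. Capitals mark the stop triplets taa, tag and tga in any of the 3 frames of the exon's own strand, 5′ to 3′.
ADIRF exon, 63 bases: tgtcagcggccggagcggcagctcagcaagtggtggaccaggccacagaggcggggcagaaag
AHI1 exon, 159 bases: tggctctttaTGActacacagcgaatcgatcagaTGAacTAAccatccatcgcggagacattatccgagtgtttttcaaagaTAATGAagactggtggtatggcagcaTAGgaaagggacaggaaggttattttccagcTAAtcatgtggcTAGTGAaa
The ADIRF exon (chr10:86970200-86970262, + strand) spans 21 codons and holds no stop triplet in any frame. Its inclusion level was 0.909 under palbociclib and 0.904 in DMSO. ADIRF encodes a small factor named for adipogenesis. The AHI1 exon (chr6:135323162-135323320, − strand) spans 53 codons, with 2 stop triplets in its first frame, 7 in its second and 0 in the third. Inclusion of an exon like that of AHI1, which encodes a ciliary protein, leaves a reading frame open in 1 of 3 frames only. Its inclusion level was 0.826 under palbociclib and 0.899 in DMSO, at an adjusted p of 0.889 in edgeR's quasi-likelihood test. Whether the other members lie in coding regions was not analysed here.

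Members had a median length of 120 bases, with an interquartile range of 87 to 165 and a longest exon of 8247 bases. Lengths under 100 bases accounted for 1773 events, 100 to under 200 bases for 2362, 200 to under 500 bases for 639, and 500 bases or more for 124. Their introns had median lengths of 2565 bases before and 2644 bases after the exon, against 2525 and 2762 bases for the frame-shifting exons over 51 bases. Of the 2722 host genes with a RefSeq entry for their symbol, 90.8% were protein-coding, against 90.0% for frame-shifting exons. An ATAC peak overlapped 112 of the 3993 member exons (2.80%), near the 2.82% of all exons past the read filters, and none of the 17 exons called below.

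Inclusion levels of members ran over the whole range, with a median of 0.411 in DMSO (interquartile range 0.102 to 0.761) and 0.403 under palbociclib. Mean levels in DMSO under 0.1 were found for 1201 events, levels from 0.1 to 0.9 for 3486 and levels over 0.9 for 211. In DMSO the median level was 0.344 for frame-shifting exons over 51 bases and 0.522 for exons of up to 51 bases. The lower level of longer exons appeared within the members as well. Exons under 100 bases had a median of 0.446 in DMSO, those of 100 to under 200 bases 0.432, those of 200 to under 500 bases 0.299, and those of 500 bases or more 0.146. For frame-shifting exons the same length classes had 0.454, 0.334, 0.260 and 0.159. These levels are a description, since the filter on the rarer form acts on raw reads, of which a long included exon yields more. The plot of levels by length class shows these distributions.

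**Figure D1:**
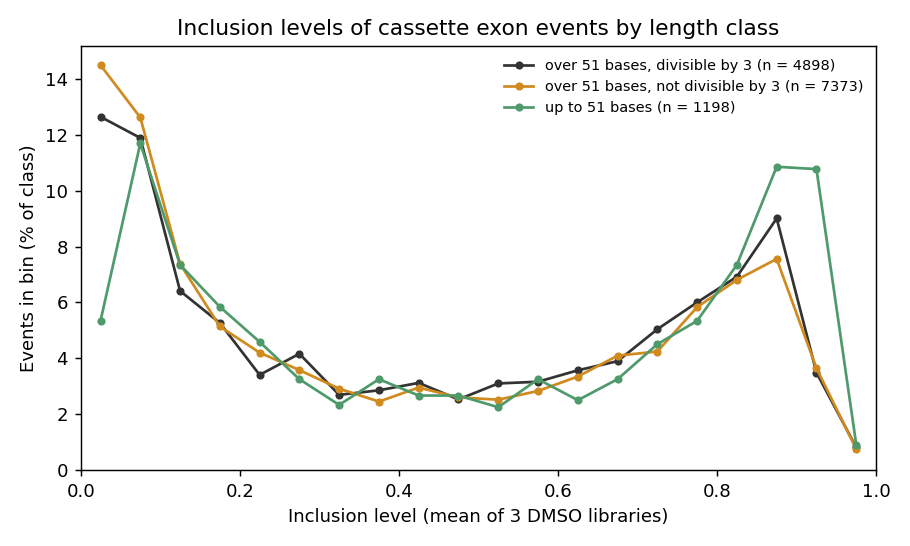
Inclusion level in DMSO (x axis, mean of 3 libraries, bins of 0.05) against the share of events in each bin (y axis, percent of the class) for the 3 length classes past the read filters. Members, in black, have a peak at low and another at high levels, and their median of 0.411 lies between those of the frame-shifting (0.344) and the short exons (0.522).

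Several genes carried many members. The non-coding RNA gene PVT1 had 12 member exons, and the non-coding genes LINC00665 and SNHG17 had 8 each. MAPT, which encodes the microtubule-associated protein tau, had 8 as well, with levels in DMSO from 0.0164 to 0.786. EPB41L1, a membrane skeleton protein gene, had 7, from 0.0390 to 0.935, and the actin-linked adaptor gene SORBS2 had 7, from 0.00458 to 0.897. No event of these 6 genes was called.

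The main comparison asked which member exons were included more or less often after palbociclib. In libraries of the same group, inclusion levels of the members had a Pearson r of 0.925 to 0.937 over events, and between groups of 0.923 to 0.935. These correlations run over events that share libraries and genes and are given as a description. Median levels per library were 0.382, 0.395 and 0.394 for palbociclib replicates 1 to 3 and 0.395, 0.406 and 0.399 for DMSO replicates 1 to 3. The median difference of palbociclib minus DMSO was -0.0010, with an interquartile range of -0.035 to 0.032. Every palbociclib library had a lower median than every DMSO library, by a small margin (0.3952 at most against 0.3954 at least), and the mean level was 0.433 in each palbociclib library against 0.435 to 0.436 in DMSO. For single events the median SD between replicates was 0.0434 in DMSO and 0.0413 under palbociclib (n = 3 each).

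At an adjusted p under 0.05 in edgeR's quasi-likelihood test, with Benjamini-Hochberg adjustment over all 13469 events, 9 member events rose (0.184%, against 0.163% of all events) and 8 fell (0.163%, against 0.148%). Together the 17 were 0.347% of the members, near the 0.312% called among all skipped exon events (42 of 13469), and no result particular to members is read from the count. Frame-shifting exons had 22 calls (0.298%) and short exons 3 (0.250%). Among members 8 calls, 4 each way, came with a change of at least 0.1 (0.163%, against 0.104% of all events). An unadjusted p under 0.05 was reached by 474 members (9.68%, against 9.57% of all), and the groups did not overlap in 726 (14.8%, against 14.9%).

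Calls were found where reads were many. Among the 1545 events with 20 to under 50 reads the median absolute difference was 0.0615, and none was called. The 1985 events with 50 to under 200 reads had a median of 0.0316 and 2 calls. The 1368 events with at least 200 reads had a median of 0.0188 and held 15 of the 17 calls. The share with an unadjusted p under 0.05 ran from 4.72% over 7.96% to 17.8% in these 3 classes. The median SD between DMSO replicates was 0.0886 in the least-read class and 0.0214 in the most-read one, so a change of 0.1 was close to the replicate spread in the first and several times that spread in the last.

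**Figure D2:**
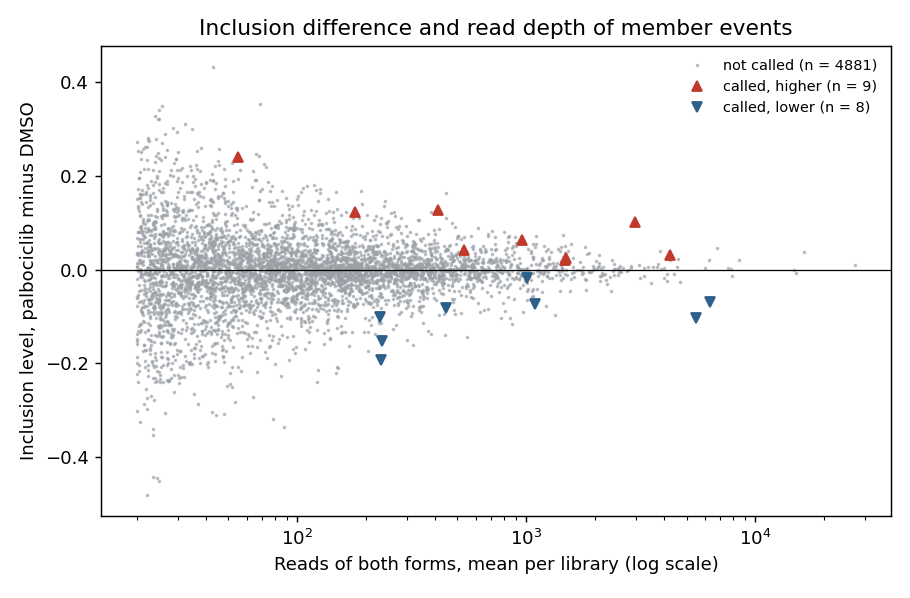
Mean reads of both forms per library (x axis, log scale) against the inclusion level under palbociclib minus that in DMSO (y axis) for the 4898 member events. Points narrow towards 0 from left to right, and 15 of the 17 called events (triangles) have at least 200 reads.

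Most calls were lost in at least 1 fit without a library, and each such fit has fewer libraries to test with. Leaving out 1 library at a time gave 1 to 12 called members, and 1 to 10 of the 17 kept their call. Without palbociclib replicate 2 only EIF4A2 remained called (adjusted p = 0.0243), and without DMSO replicate 2 only EIF4A2 and NASP. In a test on junction reads alone, which leaves out reads inside the exon, 6 of the 17 kept their call. They were EIF4A2, CRYZ, WNK1, NAT1, PTP4A2 and the 72-base exon of SNRNP70. All 17 kept their direction, but these junction reads are part of the reads that gave the calls. The skipping reads were the same, so the kept direction is no independent support. Limma on log2 odds called 0 members, 383 of which had an unadjusted p under 0.05, and edgeR without the filter on the rarer form called 1, not among the 17. In all 17 the 3 palbociclib values lay apart from the 3 DMSO values. That adds no support, since the calls were made on the same reads. Groups did not overlap in 14.8% of all members and 14.9% of all events.

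Reads on the junctions entering and leaving the exon showed how well each event matched a simple cassette exon. In 1745 members (35.6%) the less-read inclusion junction had under 20% of the reads of the other, and in 337 it had none. The share was 41.8% for frame-shifting and 28.5% for short exons. It ran from 30.2% of members under 100 bases to 48.4% of those of 500 bases or more. Among the 17 called events 6 were one-sided in this sense: both SNRNP70 events and those of SRRM2, WNK1, ZNF106 and PTP4A2. The other 11 calls were 5 higher and 6 lower. What the one-sided reads stand for, such as another start, end or splice site nearby, was not tested.

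**Figure D3:**
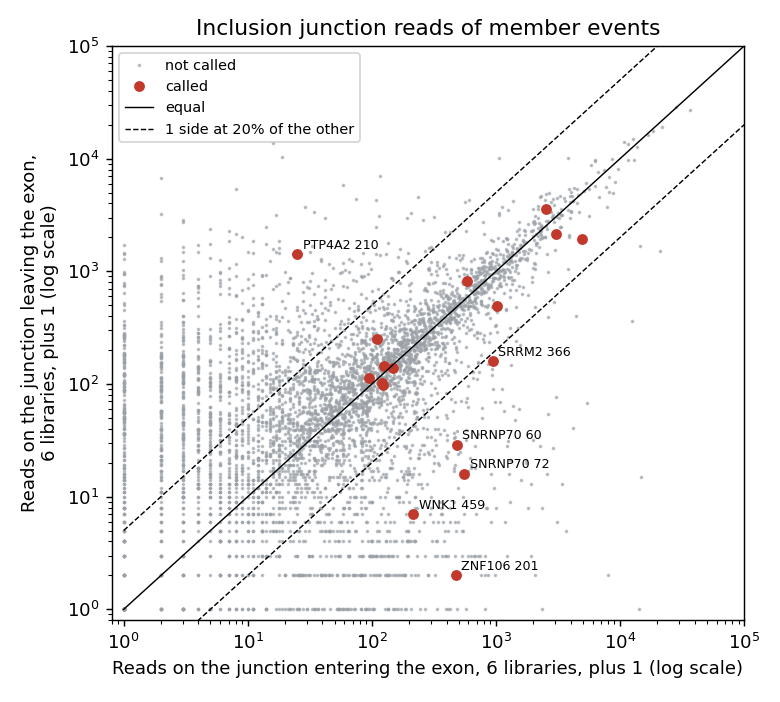
Reads on the junction that enters the exon (x axis) against those on the junction that leaves it (y axis), summed over 6 libraries plus 1, both on log scales, for the 4898 member events. Called events are red, and the 6 that lie outside the dashed lines, where 1 side has 20% of the other, are named with their length in bases.

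The called exons are given by the known roles of their genes, grouped after the calls were seen. The first are genes of RNA processing and translation. In EIF4A2, a helicase of translation initiation, an exon of 111 bases (chr3:186788310-186788420, + strand) had inclusion levels of 0.0987, 0.105 and 0.126 under palbociclib and 0.155, 0.173 and 0.211 in DMSO. Inclusion fell in every palbociclib library below every DMSO library, from a mean of 0.180 ± 0.0289 to 0.110 ± 0.0143 (SD, n = 3; edgeR adjusted p = 0.00123). With a mean of 6345 reads per library it was the most deeply read of the called events. Its 4969 entering and 1936 leaving junction reads put both sides of the exon in evidence. It kept its call without each single library in turn, with adjusted p up to 0.0243.

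SRSF3, an SR protein that promotes exon inclusion, held a member exon of 456 bases (chr6:36599821-36600276, + strand). Inclusion of a long SRSF3 exon is known to bring a stop codon into the RNA despite a length divisible by the codon size, as part of the gene's control of its own level. Its levels were 0.117, 0.116 and 0.107 under palbociclib and 0.0815, 0.0818 and 0.0823 in DMSO. The mean rose from 0.0819 ± 0.00042 to 0.113 ± 0.00542 (SD, n = 3; edgeR adjusted p = 0.0234), and the DMSO libraries were nearly equal. Junction reads alone gave 0.0494 under palbociclib and 0.0367 in DMSO (adjusted p = 0.271). SRSF3 RNA fell from 207 ± 11.7 to 174 ± 9.46 FPKM. Without a single library the adjusted p of the exon lay between 0.0203 and 0.152, and it kept its call without palbociclib replicate 3 only.

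In SNRNP70, which encodes a protein of the U1 particle that recognises the 5′ splice site, 2 called exons began at the same base and ended 12 bases apart. The exon of 72 bases (chr19:49102114-49102185, + strand) had levels of 0.0413, 0.0543 and 0.0551 under palbociclib and 0.0332, 0.0238 and 0.0170 in DMSO. Its mean rose from 0.0246 ± 0.00813 to 0.0502 ± 0.00771 (SD, n = 3; edgeR adjusted p = 0.0127). The exon of 60 bases rose from 0.0253 ± 0.00835 to 0.0463 ± 0.0069 (adjusted p = 0.0494), and its groups did not overlap either. The events used the same 8346 skipping reads and the same junction into the exon, so they are not independent of each other. Only 15 reads left the 72-base exon and 28 the 60-base exon, against 553 and 482 reads that entered them. Both calls were lost without palbociclib replicate 2, DMSO replicate 2 and DMSO replicate 3, with adjusted p up to 0.135 and 0.246, and that of the shorter exon also without palbociclib replicate 3.

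SRRM2, a scaffold of nuclear speckles, had an exon of 366 bases (chr16:2769862-2770227, + strand) at 0.675, 0.702 and 0.664 under palbociclib and 0.575, 0.599 and 0.562 in DMSO. The rise of the mean from 0.578 ± 0.0189 to 0.680 ± 0.0199 (SD, n = 3) had an edgeR adjusted p of 0.0225. Of its 15943 inclusion reads 14847 lay inside the exon, and the junctions had 937 reads entering and 159 leaving. Junction reads alone gave levels of 0.253 and 0.186 for palbociclib and DMSO, more than 1.5 times lower in both, and an adjusted p of 0.415. DDX46, a helicase that acts before the spliceosome is assembled on the branch site, had an exon of 117 bases (chr5:134790106-134790222, + strand) at 0.0696, 0.0862 and 0.0960 under palbociclib and 0.0461, 0.0451 and 0.0331 in DMSO. Its mean rose from 0.0414 ± 0.00723 to 0.0839 ± 0.0133 (adjusted p = 0.0381), while DDX46 RNA fell from 44.9 ± 1.86 to 31.7 ± 0.674 FPKM. Without single libraries the adjusted p reached 0.183 for SRRM2, which kept its call without palbociclib replicates 1 and 3, and 0.175 for DDX46, which kept it without palbociclib replicate 1.

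Histone supply and transcription were represented by NASP and NAB2, and ZNF106, whose protein binds RNA, is given beside them. NASP is a histone chaperone known in a long and a short protein form that differ by an internal stretch. Its member exon of 1017 bases, or 339 codons (chr1:45607321-45608337, + strand), had levels of 0.520, 0.538 and 0.566 under palbociclib and 0.645, 0.636 and 0.654 in DMSO. The mean fell from 0.645 ± 0.00901 to 0.541 ± 0.0230 (SD, n = 3; edgeR adjusted p = 0.00541), and the groups lay well apart. NASP RNA as a whole fell from 86.2 ± 2.08 to 36.3 ± 0.873 FPKM, a limma log2 change of -1.23 ± 0.03 (SE; adjusted p = 2.29e-08). A lower inclusion level of the long exon thus came beside a lower RNA level. Of its 31107 inclusion reads 25923 lay inside the exon. Junction reads alone gave 0.527 under palbociclib and 0.631 in DMSO (edgeR adjusted p = 0.183). The exon's call was lost without palbociclib replicate 2 (adjusted p = 0.0829).

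NAB2, a co-repressor of the EGR transcription factors, had an exon of 192 bases (chr12:57093407-57093598, + strand) at 0.886, 0.941 and 0.928 under palbociclib and 0.772, 0.781 and 0.821 in DMSO. Inclusion rose from 0.791 ± 0.0259 to 0.918 ± 0.0286 (SD, n = 3; edgeR adjusted p = 0.0296). NAB2 RNA, at 22.3 ± 0.683 FPKM in DMSO, had a log2 change of -0.08 and was not called. ZNF106, a zinc finger protein that binds RNA, had an exon of 201 bases (chr15:42456958-42457158, − strand) at 0.680, 0.659 and 0.644 under palbociclib and 0.796, 0.893 and 0.875 in DMSO. The mean fell from 0.855 ± 0.0518 to 0.661 ± 0.0178 (adjusted p = 0.0491), the largest fall among the called exons. Its junctions had 473 reads entering and 1 leaving. NAB2 kept its call without palbociclib replicate 1 or DMSO replicate 3, and ZNF106 without DMSO replicate 1. The highest adjusted p of these fits was 0.191 for NAB2 and 0.285 for ZNF106.

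Calls in genes of cytoskeleton, adhesion and signalling follow. ARHGAP17, a protein of epithelial cell junctions, had an exon of 234 bases (chr16:24939364-24939597, − strand) at 0.0615, 0.0492 and 0.0624 under palbociclib and 0.155, 0.185 and 0.138 in DMSO. Inclusion fell from 0.159 ± 0.0238 to 0.0577 ± 0.00741 (SD, n = 3; edgeR adjusted p = 0.00878), with 120 and 102 reads on its junctions. The microtubule-binding protein gene MAP4 had an exon of 3384 bases, or 1128 codons (chr3:47909038-47912421, − strand), at 0.0270, 0.0227 and 0.0309 under palbociclib and 0.0441, 0.0459 and 0.0414 in DMSO. That very long exon fell from a mean of 0.0438 ± 0.00226 to 0.0269 ± 0.00409 (adjusted p = 0.0488), the smallest change among the called exons. ARHGAP17 lost its call without palbociclib replicate 2 and without DMSO replicate 2 (adjusted p up to 0.111), and MAP4 kept it without palbociclib replicate 3 only (up to 0.271).

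WNK1, a kinase that controls ion transport, had an exon of 459 bases (chr12:879573-880031, + strand) at 0.110, 0.0954 and 0.0686 under palbociclib and 0.175, 0.162 and 0.181 in DMSO. Its mean fell from 0.173 ± 0.00989 to 0.0914 ± 0.0211 (SD, n = 3; edgeR adjusted p = 0.0349). It was one-sided, with 214 reads entering and 6 leaving, and junction reads alone gave 0.0388 and 0.107 (adjusted p = 0.0402). A further event of the same exon, with another neighbour, had levels of 0.185 under palbociclib and 0.236 in DMSO (adjusted p = 0.573). The next WNK1 member exon, of 279 bases, had 0.345 and 0.460 (adjusted p = 0.0982). Other WNK1 members had higher values under palbociclib, with 0.0606 against 0.0455 for an exon of 1239 bases (adjusted p = 0.493) and 0.867 against 0.809 for one of 84 bases (adjusted p = 0.484), while a further event of each had 0.131 against 0.103 and 0.684 against 0.698. The 459-base exon kept its call without palbociclib replicate 1 only (adjusted p up to 0.154).

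ITGAE, the integrin alpha E chain that binds E-cadherin, had an exon of 96 bases (chr17:3723288-3723383, − strand) at 0.219, 0.236 and 0.185 under palbociclib and 0.0794, 0.0862 and 0.104 in DMSO. Inclusion rose from 0.0899 ± 0.0127 to 0.214 ± 0.0260 (SD, n = 3; edgeR adjusted p = 0.0498), and ITGAE RNA fell by 0.44 on the log2 scale, to 15.6 ± 0.223 FPKM. PTP4A2, a phosphatase anchored to membranes, had an exon of 210 bases (chr1:31930933-31931142, − strand) at 0.173, 0.183 and 0.190 under palbociclib and 0.125, 0.0988 and 0.130 in DMSO. The PTP4A2 mean rose from 0.118 ± 0.0170 to 0.182 ± 0.00845 (adjusted p = 0.0498). Only 24 reads entered that exon, against 1424 that left it. In 3 other events, with other sets of neighbours, the same exon was mostly included, at 0.712 to 0.825 under palbociclib and 0.648 to 0.810 in DMSO. Their palbociclib minus DMSO differences were 0.0148 to 0.0866, none called. Neither exon was called once any 1 of the 6 libraries was left out, with adjusted p of 0.0501 to 0.208 for ITGAE and 0.0714 to 0.333 for PTP4A2.

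The remaining calls lay in genes of metabolic enzymes. CRYZ, a quinone oxidoreductase that also binds RNA, had an exon of 102 bases (chr1:74707103-74707204, − strand) at 0.866, 0.837 and 0.849 under palbociclib and 0.954, 0.913 and 0.907 in DMSO. Inclusion fell from 0.925 ± 0.0256 to 0.851 ± 0.0148 (SD, n = 3; edgeR adjusted p = 0.0296), and its junctions, with 2524 and 3568 reads, were both well covered. NAT1, an arylamine N-acetyltransferase, had an exon of 384 bases (chr8:18212391-18212774, + strand) at 0.132, 0.135 and 0.145 under palbociclib and 0.304, 0.337 and 0.226 in DMSO. Its mean fell from 0.289 ± 0.0574 to 0.137 ± 0.00674 (adjusted p = 0.0381). With another neighbour the same exon had levels of 0.645 and 0.884 (adjusted p = 0.193), lower under palbociclib in that event too.

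GFPT2, an enzyme of the hexosamine pathway, had the least-read called exon, with a mean of 55 reads per library. That exon of 162 bases (chr5:180302423-180302584, − strand) had a level of 1.000 in each palbociclib library and 0.797, 0.736 and 0.744 in DMSO, a mean of 0.759 ± 0.0331 (SD, n = 3; edgeR adjusted p = 0.0498). No skipping read was found among 169 reads under palbociclib. At a limit of 3 skipping reads over the group, 1.78% of its reads, the level would be 0.955, counting error only. GFPT2 RNA was low, at 1.04 ± 0.118 FPKM under palbociclib and 0.945 ± 0.132 FPKM in DMSO. CRYZ kept its call without palbociclib replicate 1 or DMSO replicate 3 and NAT1 without DMSO replicate 3, while GFPT2 was not called without any 1 of the 6 libraries. Their highest adjusted p values were 0.152, 0.263 and 0.181.

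**Figure D4:**
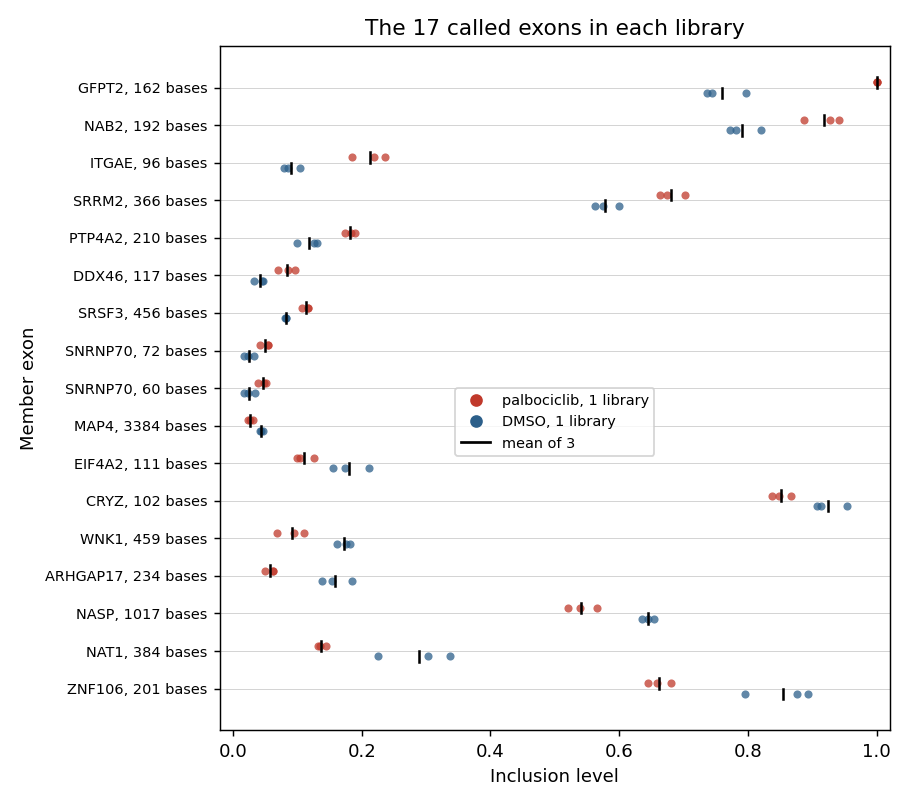
Inclusion level (x axis) of the 17 called member exons (y axis, host gene and exon length) in each palbociclib library (red) and each DMSO library (blue), with the mean of 3 libraries as a black line. Exons are ordered by their difference. In every one of them the red and the blue points do not overlap, which selection by p-value on the same reads favours.

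The RNA level of the 16 host genes was tested with limma on log2(FPKM + 1). It rose for 4 hosts and fell for 7, with Benjamini-Hochberg adjustment over 15869 genes, of which 43.7% changed (20.9% higher and 22.9% lower). Of all member hosts tested, 47.8% changed. EIF4A2 (log2 change 0.24), SRRM2 (0.24), PTP4A2 (0.18) and CRYZ (0.15) rose, and NASP (-1.23), DDX46 (-0.49), ZNF106 (-0.48), ITGAE (-0.44), WNK1 (-0.29), SRSF3 (-0.25) and ARHGAP17 (-0.18) fell. SNRNP70, NAB2, NAT1, MAP4 and GFPT2 had log2 changes of -0.08 to 0.07 and were not called. Inclusion and RNA level thus moved the same way in NASP, ZNF106, WNK1, ARHGAP17, SRRM2 and PTP4A2 and opposite ways in EIF4A2, CRYZ, SRSF3, DDX46 and ITGAE. ARHGAP17 lost its RNA call under quantile normalization (adjusted p = 0.150), without palbociclib replicate 2 (0.0701) and without DMSO replicate 1 (0.0717). CRYZ lost it without palbociclib replicate 1, palbociclib replicate 2 or DMSO replicate 1 (0.0513 to 0.0531). MAP4 was called higher under quantile normalization (log2 change 0.13, adjusted p = 0.0236).

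Larger differences were found among members that missed the threshold, and their values follow with no test claimed. Among members with an unadjusted p under 0.05, at least 50 reads and groups that did not overlap, 288 events of 277 exons were not called, 139 of them higher and 149 lower. Members were near all skipped exon events in the share with an unadjusted edgeR p under 0.05 (9.68% against 9.57%). The share without overlap was near as well (14.8% against 14.9%). No result particular to members is read from the 288. DHX34, a helicase of nonsense-mediated decay, had an exon of 75 bases (chr19:47376915-47376989, + strand) at 0.749, 0.763 and 0.715 under palbociclib and 0.493, 0.337 and 0.339 in DMSO. Its mean levels were 0.742 ± 0.0250 and 0.390 ± 0.0894 (SD, n = 3), a wider gap than in any called exon, at an edgeR adjusted p of 0.0812 and 68.3 reads per library. The nucleoside transporter gene SLC29A1 had 0.803 under palbociclib and 0.557 in DMSO (195 bases). MPPE1, a phosphoesterase of glycolipid-anchored protein transport, had 0.865 and 0.646 (69 bases), and TAF1A, a factor of RNA polymerase I, 0.899 and 0.688 (132 bases). The antisense RNA DLG5-AS1 had 0.939 and 0.729, and the readthrough gene TVP23C-CDRT4, which shares sequence with TVP23C, 0.979 and 0.786.

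On the lower side, POGZ, a chromatin protein, had an exon of 399 bases (chr1:151442305-151442703, − strand) at 0.582, 0.378 and 0.462 under palbociclib and 0.852, 0.934 and 0.589 in DMSO. The zinc finger gene ZNF41 had a mean of 0.555 under palbociclib against 0.836 in DMSO, and the GTP-binding protein gene GTPBP1 0.703 against 0.974. CDK12, a kinase of RNA polymerase II elongation, had 0.586 against 0.836. ANKRD10 had 0.402 against 0.624, and ENSG00000283103, which the files pair with no symbol, 0.601 against 0.845. Adjusted p values of these 12 exons were 0.0812 to 0.507. Their reads were few, with 50.7 to 147 per library, and 7 of the 12 were one-sided, among them POGZ, SLC29A1 and DLG5-AS1 with no read on the junction entering the exon.

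Host genes were also grouped by role, with lists chosen when earlier results of these data were known. Of 58 member events in RNA binding and splicing genes, a list that does not hold DDX46, 4 rose and 1 fell (8.62% called, against 0.347% of all members). Without adjustment, 10 had a p under 0.05 with higher and 3 with lower inclusion, which all members reached in 4.43% and 5.25%. Their median depth was 465 reads, against 92.1 for all members, and calls were more frequent among deep members. Among the 44 of them with at least 200 reads 11.4% were called and 27.3% had an unadjusted p under 0.05, against 1.1% and 17.8% of all 1368 members so deep. The 4 rises included both SNRNP70 events, which shared their skipping reads and their entering junction and are not independent of each other. Those events and that of SRRM2 were one-sided. The shares are a description only. In this list HNRNPK, an RNA-binding protein of many roles, had an exon of 72 bases at 0.926 ± 0.00856 under palbociclib and 0.905 ± 0.0149 in DMSO (SD, n = 3; edgeR adjusted p = 0.193). HNRNPA1, a repressor of exon inclusion, had an exon of 156 bases at 0.0491 ± 0.00508 and 0.0466 ± 0.00099 (adjusted p = 0.892). HNRNPA1 RNA fell from 651 ± 28.3 to 483 ± 3.92 FPKM.

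The other lists held 2 calls in all. Cytoskeleton, adhesion and polarity genes had 163 member events, of which 2 fell and none rose (1.23%, against 0.347% of all members), at a median depth of 187 reads. Chromatin and transcription genes (94 events), cell cycle, replication and repair genes (77) and vesicle traffic and signalling genes (90) had none. An unadjusted p under 0.05 was reached by 11.7%, 11.7%, 9.09% and 10.0% of these 4 lists in that order, against 9.68% of all members. CTTN, which encodes the actin-binding protein cortactin, had an exon of 111 bases at 0.765, 0.787 and 0.785 under palbociclib and 0.808, 0.809 and 0.809 in DMSO (edgeR adjusted p = 0.471). ENAH, an actin regulator, had an exon of 63 bases at 0.549 ± 0.0298 and 0.563 ± 0.0347 (SD, n = 3; adjusted p = 0.921). CTNND1, which encodes the p120 catenin of cell junctions, had an exon of 87 bases at 0.342 ± 0.0269 and 0.338 ± 0.0288 (adjusted p = 0.979). In these 3 exons the differences were -0.0291, -0.0142 and 0.0040 at 2121 or more reads per library.

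Deep members of the remaining lists showed values of the same kind. BCLAF1, a nuclear RNA-binding factor, had an exon of 147 bases at 0.695 ± 0.0211 under palbociclib and 0.700 ± 0.0395 in DMSO (SD, n = 3). MLX, a partner of glucose-sensing transcription factors, had 0.882 and 0.863, and ARID4B, a subunit of a histone deacetylase complex, 0.761 and 0.783. CENPX, a centromere and DNA repair protein, had an exon of 54 bases at 0.487 ± 0.0361 and 0.437 ± 0.0235 (edgeR adjusted p = 0.592), with RNA falling from 93.5 ± 2.38 to 62.0 ± 4.06 FPKM. ANAPC11, the catalytic subunit of the anaphase-promoting complex, had 0.569 and 0.590, and PCM1, a centriolar satellite protein, 0.558 and 0.532. APLP2, of the amyloid precursor family, was read most of all these, with 16270 reads per library, at 0.759, 0.775 and 0.756 under palbociclib and 0.726 in each DMSO library (adjusted p = 0.130). Its groups did not overlap. The 57-base exon of its relative APP had 0.288 ± 0.00869 and 0.312 ± 0.0140 (adjusted p = 0.683). GNAS, a G protein alpha subunit, had 0.143 and 0.161 in an event with 7957 reads entering the exon and 1 leaving it.

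RNA of 50 genes that regulate cassette exons was looked up beside these results, again in a list chosen with earlier results known. By limma on log2(FPKM + 1), 8 rose and 29 fell of the 49 tested (75.5%, against 43.7% of all genes), with a median log2 change of -0.20 against 0.00 for all genes. Under quantile normalization 10 rose and 26 fell, with a median of -0.15 against 0.06. The list had a median level of 117 FPKM in DMSO, while the genes tested ran down to a mean of 0.5 FPKM. Genes of a like level were not compared. SRSF7 fell from 102 ± 1.68 to 65.1 ± 1.15 FPKM and HNRNPA2B1 from 686 ± 26.4 to 462 ± 23.6 FPKM (SD, n = 3). TIA1 rose from 49.1 ± 0.939 to 60.4 ± 0.834 FPKM. The epithelial regulators moved apart, ESRP1 from 67.5 ± 2.92 to 54.3 ± 0.488 FPKM and ESRP2 from 91.9 ± 2.03 to 109 ± 5.11 FPKM. Their part in the inclusion of any member was not tested. In bulk RNA, a change in the share of cells at a given stage and a change within cells cannot be told apart.

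At the edges of the rule, AKAP13 entered with 20 reads per library, at levels of 0.642 under palbociclib and 0.663 in DMSO, and ERC1 stayed out with 19.8 reads, at 0.512 and 0.432. VPS29 entered with the rarer form in 5% of reads, at 0.963 and 0.855, and CENPK stayed out with 4.99%, at 0.954 and 0.893. The shortest members, of 54 bases, were 99 events, of which that of C1orf43 had the most reads, at 0.842 and 0.802. Just below the length limit, 83 events of 51 bases were left out, with ATPAF1 the most read, at 0.885 and 0.880. In the authors' deposited table, 312 members had an FDR under 0.05, 149 higher and 163 lower. They were 6.37% of the members, near the 6.19% of all skipped exon events past the read filters, and included all 17 exons called here.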

How the data were processed

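Members and gene lists were chosen with earlier results of these data known. RNA was poly(A)-selected and sequenced on a NextSeq500, per the labels' protocols. The submitters' processing notes name fastp 0.23.2, STAR 2.7.10b, SAMtools 1.16, Salmon 1.10.2 and the build GRCh38. The deposited skipped exon table holds inclusion and skipping read counts per event and library, with a p-value and FDR of the authors, and the column names are those of rMATS. The authors' inclusion difference, a score of palbociclib minus DMSO per the file headers, gave the direction of the authors' own calls. Inclusion levels were recomputed from these counts and the form lengths in the table. Whether the counting used strand is not given in the sources used here. The deposited RNA table holds FPKM per gene and library, made by the authors. The authors' ATAC table holds read counts per peak, used here only for peak positions.

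The inclusion and skipping counts of all 13469 events past the read filters were tested with edgeR 4.0.16 (quasi-likelihood, TMM factors of library totals) in R 4.3.3, with terms for library, form and form by treatment. Log2(FPKM + 1) was tested with limma 3.58.1 (trend) over 15869 genes with a mean of at least 0.5 FPKM. P-values were adjusted by Benjamini-Hochberg. A run of the fit on simulated counts used larger changes in odds than most calls here. It does not show how smaller changes fare. Named are every called member, the 6 uncalled members with the largest difference each way (unadjusted p under 0.05, 50 reads, no overlap), the 3 most-read members of each host list and the members at the rule's limits. ADIRF, AHI1 and genes with many members were chosen after their values were seen. Alternatives were DESeq2 1.42.0, limma on log2 odds with a pseudocount of 0.5, other size factors, read minimums of 50 and 1, no filter on the rarer form, 1 event per exon, a replicate block, each library left out, and, chosen after seeing the data, junction reads only and members with both junctions read. For FPKM they were a pseudocount of 0.1, no filter, quantile normalization, a replicate block and each library left out. Same-numbered libraries had correlations of their deviations of 0.0254, 0.00348 and 0.0103, so the numbers were not taken as pairs.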

Additional observations from a re-analysis of the deposited data

How the results depend on the processing

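Against 9 higher and 8 lower members, 8 with a change of at least 0.1, and 22 higher and 20 lower of all events, limma on log2 odds gave 0 for each and kept 0 of the 17 calls. In that fit 383 members had an unadjusted p under 0.05. Without the filter on the rarer form the counts were 1, 0, 0, 2 and 0, with 0 of the 17 kept and 28781 member events tested. A minimum of 1 read gave 18 higher members and 46 higher and 36 lower events. DESeq2 gave 4 members with a change of at least 0.1, and 9 of the 17 were called, while 8 got no adjusted p. The replicate block gave 23 higher and 19 lower members, 17 with such a change, and 54 and 48 of all events. Junction reads only gave 2 higher and 4 lower members, 1 with such a change, 8 and 11 of all events, and kept 6 of the 17. Members with both junctions read gave 5 higher. The causes were not tested. With each library left out in turn, higher members numbered 0 to 6, lower members 1 to 7, changes of at least 0.1 0 to 4, all higher events 6 to 16, all lower events 3 to 16, kept calls 1 to 10, and host genes with changed RNA 9 to 11. Other size factors, a minimum of 50 reads and 1 event per exon kept these counts within 1.5 times. Of 572 values of single exons and host genes under alternatives, 448 kept their status, whether called or uncalled. That total pools the 17 called exons with uncalled exons, which mostly stayed uncalled, and with host gene RNA. Among the called exons, EIF4A2 kept its call most often, in 13 of 15 alternatives, and GFPT2 least often, in 4 of 14. A call was lost in 122, nearly all of them for the 17 called exons, and gained in 2. The count of 0 reversed calls is no test of exon direction. Most alternatives kept the same inclusion difference, and with groups that do not overlap, leaving out 1 library cannot turn its sign. The gains were DHX34 under the replicate block (adjusted p = 0.0450) and the RNA of MAP4 under quantile normalization (0.0236). With 3 libraries per group, and 1545 members under 50 reads, a change of 0.1 was close to the replicate SD of those members.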
